A study of Mus musculus with 61 samples.

Results

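The comparison described here asks what 2 weeks of exercise training left in the quadriceps of mice that were given diphtheria toxin to remove their regulatory T cells (Tregs). It consists of the 3 libraries of trained Foxp3DTR+ mice (trained DTR+) and the 3 libraries of trained Foxp3DTR- mice (trained DTR-), which are 6 of the 61 libraries of the series and were chosen by the group names in their titles. Foxp3DTR+ stands for Foxp3-IRES-GFP.hDTR, an allele that places a fluorescent protein and the human diphtheria toxin receptor behind Foxp3, so that the toxin kills Foxp3-expressing cells throughout the body and not in muscle alone. Both groups received the toxin, and neither received an antibody. Other libraries served as companions: 3 sedentary DTR+ and 3 sedentary DTR- mice given the toxin in the same training experiment, and, from a separate experiment, trained DTR+ mice given the toxin and an antibody neutralising interferon-gamma (IFN-gamma, 3 libraries) or control IgG (3 libraries), injected every other day for 1 week. The labels of these groups give no age, sex, strain background or number of animals per library. Samples of a group differ in the labels by number alone, so that p-values measure the spread between these samples.

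Tregs are CD4+ T cells that depend on the transcription factor Foxp3 and restrain other lymphocytes, and in muscle they accumulate after injury or exercise. IFN-gamma is a cytokine of T cells and natural killer cells. It binds the receptor made of Ifngr1 and Ifngr2, which signals through the kinases Jak1 and Jak2. Its target genes often carry a gamma-activated site (GAS) and include factors such as Irf1, guanylate-binding and immunity-related GTPases, and the genes of antigen presentation.

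Foxp3, the targeted gene, had 0 counts in all 3 trained DTR+ libraries and 0 counts in all 3 trained DTR- libraries, which, by counting error alone, still allows 0.482 to 0.571 CPM (counts per 1000000 counts of the library). Foxp3 in whole muscle therefore did not check the genotype labels of these 6 libraries. The label of skeletal muscle was borne out: all 10 skeletal muscle fibre markers had counts in both groups. These markers do not tell the quadriceps from another muscle. Their summed level was 180842, 176496 and 181144 CPM in trained DTR+ libraries, against 190178, 176287 and 178461 CPM in trained DTR- libraries. Of 8 heart muscle markers, 5 had counts in trained DTR+ libraries (448 in all) and 6 in trained DTR- libraries (475 in all). Their summed level was 12.2, 35.1 and 29.5 CPM in trained DTR+ libraries and 36.6, 16.0 and 27.8 CPM in trained DTR- libraries. Nppb and Myl7 were at 0 in both groups. The 6 libraries held 5254321 to 6223157 counts. Mitochondrially encoded genes took 8.82%, 8.93% and 7.48% of the counts in trained DTR+ libraries and 6.27%, 7.90% and 8.93% in trained DTR- libraries, with overlap. Since whole tissue was sequenced, more cells of a type and more RNA per cell cannot be told apart.

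Of 12579 genes tested, 78 (0.620%) rose and 34 (0.270%) fell in trained DTR+ muscle, by edgeR's quasi-likelihood test with a Benjamini-Hochberg adjusted p under 0.05, which is the meaning of "called" throughout. Together they made up 0.890% of the genes tested. Whatever their p, 6238 of the genes tested were higher in trained DTR+ muscle and 6341 were lower. A further measure is the overlap of the libraries. All 3 trained DTR+ libraries were above all 3 trained DTR- libraries in CPM for 5.96% of the genes tested and below them for 9.36%. The rises were large, with a median log2 fold change of 2.30 over the 78 genes, against -0.00 over all genes tested. The falls were smaller, with a median of -1.52. Of the 78 genes that rose, 60 belonged to one of the 46 lists of pathway genes and cell type markers, and 52 to the lists of interferon signalling, GTPases, antigen presentation and antiviral genes. None of the 34 genes that fell belonged to any list. Of all 12579 genes tested, 696 belonged to a list and 90 to those interferon-related lists. The lists were chosen with earlier results of these data known.

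The 3 trained DTR+ libraries were not alike in strength. Replicate 2 held the highest level of 77 of the 78 genes that rose. The summed level of these genes was 5917, 13453 and 5953 CPM in trained DTR+ libraries, against 1575, 1836 and 1786 CPM in trained DTR- libraries. All 3 trained DTR+ libraries thus stood above the trained DTR- ones, and replicate 2 stood apart from the other two. Without trained DTR+ replicate 2, 44 genes rose and 3 fell.

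**Figure D1:**
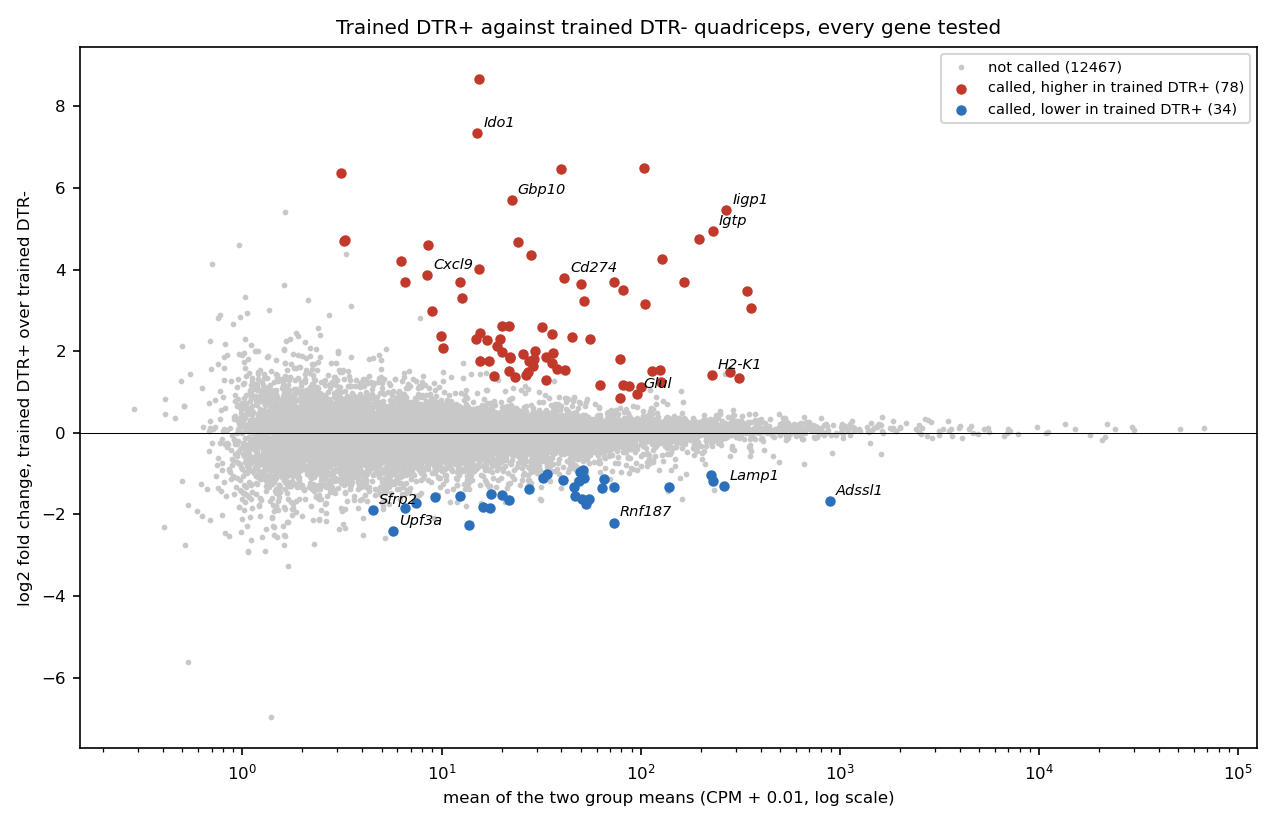
Log2 fold change of every gene tested, trained DTR+ over trained DTR- quadriceps (vertical axis), against the mean of both group means in CPM on a log axis (horizontal axis). Red points are the 78 genes called higher, blue points the 34 called lower and grey points all others; the red points reach much farther from 0 than the blue ones.

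Among the genes that carry the IFN-gamma signal, the transcription factors rose and the receptor and its kinases did not pass the test. Of 16 members of the signalling list that could be tested, 7 rose and none fell, with a median log2 fold change of 0.60. The ligand gene Ifng had 1 count in each of trained DTR+ replicates 1 and 3 (0.161 and 0.175 CPM) and 0 counts in the other 4 libraries, which is too few to compare.

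Irf1, an IFN-gamma-induced factor that binds interferon-stimulated response elements (ISRE), had 50.5, 113 and 60.8 CPM in trained DTR+ libraries and 11.3, 16.2 and 18.1 CPM in trained DTR- libraries. It rose by a log2 fold change of 2.35 ± 0.30 (SE; edgeR adjusted p = 0.00016), with no overlap between the groups. Stat2 and Irf9, which act together downstream of type I interferon receptors, rose by 2.29 ± 0.30 and 2.01 ± 0.31 on the log2 scale. Nlrc5, the transactivator of class I major histocompatibility complex (MHC) genes, had 20.4, 31.3 and 17.3 CPM in trained DTR+ libraries and 3.31, 1.52 and 0.654 CPM in trained DTR- libraries. Its log2 fold change was 3.70 ± 0.54 (SE; edgeR adjusted p = 0.000678). Ciita, the corresponding transactivator of class II genes, had a log2 fold change of 1.38 ± 0.47 and did not pass the test (edgeR adjusted p = 0.305).

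The receptor chains and kinases lay close to their trained DTR- levels. Ifngr1 had 58.5, 79.2 and 72.1 CPM in trained DTR+ libraries and 62.3, 54.4 and 61.1 CPM in trained DTR- libraries. Ifngr2 had 127, 94.6 and 109 CPM in trained DTR+ libraries and 121, 136 and 124 CPM in trained DTR- libraries. The groups overlapped for both, and the log2 fold changes were 0.29 ± 0.18 and -0.15 ± 0.16. Jak1 and Jak2 had log2 fold changes of 0.10 ± 0.18 and 0.36 ± 0.34. Socs1, the feedback inhibitor of the kinases, had 1.93, 0.692 and 3.49 CPM in trained DTR+ libraries and 1.82, 1.90 and 1.63 CPM in trained DTR- libraries, with overlap.

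The immunity-related GTPases, which mice use to attack the vacuoles of intracellular pathogens, were the list with every tested member called. All 8 rose, with log2 fold changes of 3.06 to 5.46 and a median of 4.47. Iigp1, an effector GTPase, had 347, 952 and 279 CPM in trained DTR+ libraries, against 9.28, 11.8 and 16.2 CPM in trained DTR- libraries. The smallest trained DTR+ value was far above the largest trained DTR- value, and the log2 fold change was 5.46 ± 0.44 (SE; edgeR adjusted p = 1.53e-06).

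The regulatory members Irgm2, Igtp and Irgm1 keep the effectors off the cell's own membranes. Irgm2 had 264, 665 and 207 CPM in trained DTR+ libraries and 14.1, 18.3 and 12.4 CPM in trained DTR- libraries. Igtp had 264, 833 and 238 CPM in trained DTR+ libraries and 13.7, 16.2 and 15.7 CPM in trained DTR- libraries. Their log2 fold changes were 4.74 ± 0.39 and 4.94 ± 0.42 (SE; edgeR adjusted p = 1.53e-06 and 1.94e-06). Both gene models overlap on the same strand, so that the share of reads owed to each is uncertain. Irgm1, which overlaps no other tested gene, had 187, 537 and 191 CPM in trained DTR+ libraries and 22.2, 26.6 and 25.5 CPM in trained DTR- libraries.

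Tgtp2, Tgtp1 and Ifi47 are further members of the family. Tgtp2 had 23.6, 42.9 and 20.1 CPM in trained DTR+ libraries and 1.66, 1.33 and 2.45 CPM in trained DTR- libraries. Ifi47 had 46.0, 70.4 and 43.7 CPM in trained DTR+ libraries and 2.65, 3.05 and 2.45 CPM in trained DTR- libraries. Neither gene's groups overlapped, and the log2 fold changes were 4.02 ± 0.40 and 4.35 ± 0.44. Tgtp1 rose by 4.59 ± 0.70 on the log2 scale, and its close similarity to Tgtp2 leaves the split of reads between both copies uncertain.

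The guanylate-binding proteins are larger interferon-induced GTPases that act on the same vacuoles and on membranes of bacteria. Of 10 members tested, 9 rose, with a median log2 fold change of 3.88, and 6 of them were called without trained DTR+ replicate 2. Gbp4 had 123, 221 and 104 CPM in trained DTR+ libraries, against 15.6, 12.2 and 13.6 CPM in trained DTR- libraries. Gbp2 had 145, 452 and 128 CPM in trained DTR+ libraries, against 13.4, 9.71 and 16.0 CPM in trained DTR- libraries. Both were many times higher in every trained DTR+ library, with log2 fold changes of 3.50 ± 0.32 and 4.27 ± 0.46 (SE; edgeR adjusted p = 3.16e-06 and 1.66e-05).

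Gbp10 had 26.8, 83.2 and 22 CPM in trained DTR+ libraries and 0.828, 1.14 and 0.654 CPM in trained DTR- libraries, a log2 fold change of 5.70 ± 0.60. Gbp6 and Gbp7 rose by 4.67 ± 0.46 and 3.17 ± 0.32 on the log2 scale. Gbp2b had 110 counts over the trained DTR+ libraries and 1 count over the trained DTR- libraries, a ratio of 108 with a 95% exact counting interval of 19.0 to 4305. The member that was not called, Gbp5, had 7.23, 23.2 and 10.5 CPM in trained DTR+ libraries and 3.98, 2.09 and 0 CPM in trained DTR- libraries (edgeR adjusted p = 0.0877). Gbp4, Gbp8 and Gbp9 overlap in the annotation, and members of the family resemble each other in sequence, so that counts of single members are uncertain.

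Genes that rose lay side by side in the genome (GRCm38, positions from GENCODE vM21). Chromosome 11 held 5 of them between 48861968 and 49096974 (Irgm1, Gm12185, Tgtp1, Tgtp2 and Ifi47) and 3 between 58187739 and 58222782 (Gm12250, Igtp and Irgm2). Chromosome 3 held Gbp7, Gbp3, Gbp2b and Gbp2 between 142530342 and 142638008, and chromosome 5 held Gbp8, Gbp9, Gbp4, Gbp10 and Gbp6 between 105014150 and 105293698. The MHC region of chromosome 17, between 33915899 and 36032855, held 12 genes that rose.

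Promoter sequence was examined because interferon responses are known to act through short motifs. RefSeq promoters (GRCm38.p6, 250 bases before to 50 bases after each gene's start) were available for 54 of the 78 genes that rose. A GAS, written TTCNNNGAA (a palindrome, so 1 search covers both strands), was found in 12 of these 54 (22.2%), against 8.47% of 27025 promoters. An ISRE-like motif, GAAA followed by any 2 bases and GAAA, searched on both strands, was found in 22 (40.7%), against 3.49%, and both in 8 (14.8%), against 0.514%. Among 30 promoters of genes that fell, 1 held a GAS (3.33%) and 1 an ISRE-like motif (3.33%). Among the 8 with both were Irgm2, Igtp, Gm12185, Gm12250, Tgtp1 and Tgtp2, which lie in the chromosome 11 clusters named above. The promoters of Irgm2 and Igtp are nearly alike in sequence, and the gene models of Gm12185 and Tgtp1 overlap. Such neighbours are not independent cases, so these shares rest in part on copies of 1 family. A match describes the letters only and does not show that a factor bound there. The 110 bases before the start are printed for called members of the IFN-gamma-related lists with the smallest p and a motif in the window, 5′ to 3′ on the gene's strand, with motifs in capitals.
Irgm2: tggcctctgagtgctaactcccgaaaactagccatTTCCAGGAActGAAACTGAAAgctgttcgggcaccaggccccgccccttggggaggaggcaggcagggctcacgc
Igtp: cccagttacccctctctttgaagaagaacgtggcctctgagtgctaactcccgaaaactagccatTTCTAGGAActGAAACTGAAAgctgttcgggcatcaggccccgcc
Tgtp2: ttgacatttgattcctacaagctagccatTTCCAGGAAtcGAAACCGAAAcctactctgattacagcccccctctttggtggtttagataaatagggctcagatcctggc
Gbp7: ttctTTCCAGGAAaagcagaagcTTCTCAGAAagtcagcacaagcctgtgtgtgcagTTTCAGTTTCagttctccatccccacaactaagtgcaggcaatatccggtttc
Gbp2: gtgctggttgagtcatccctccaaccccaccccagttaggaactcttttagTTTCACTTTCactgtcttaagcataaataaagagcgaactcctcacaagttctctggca
Irf1: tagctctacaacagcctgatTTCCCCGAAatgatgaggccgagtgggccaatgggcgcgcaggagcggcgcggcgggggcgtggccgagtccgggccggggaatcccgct
Psmb8: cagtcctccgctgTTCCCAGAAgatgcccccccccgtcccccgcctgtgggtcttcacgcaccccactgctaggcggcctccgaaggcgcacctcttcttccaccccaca

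In Irgm2 (chr11:58214867-58214976, plus strand), Igtp (chr11:58199446-58199555, plus strand) and Tgtp2 (chr11:49064213-49064322, minus strand) a GAS was followed after 2 bases by an ISRE-like motif. Their GAS began 75, 45 and 81 bases before the start. Gbp7 (chr3:142530226-142530335, plus strand) held a pair of GAS and, farther on, the ISRE-like motif on the opposite strand, and Gbp2 (chr3:142620553-142620662, plus strand) held the ISRE-like motif alone. Irf1 (chr11:53769904-53770013, plus strand) and Psmb8 (chr17:34198085-34198194, plus strand) held a GAS alone.

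Class I antigen presentation rose from the heavy chains to the peptide transporter. Of 16 members tested, 10 rose, none fell and 15 were higher, with a median log2 fold change of 1.46. Tap1, a subunit of the transporter that carries peptides into the endoplasmic reticulum, had 68.5, 144 and 65.2 CPM in trained DTR+ libraries, against 7.62, 5.90 and 9.32 CPM in trained DTR- libraries. It rose by a log2 fold change of 3.65 ± 0.43 (SE; edgeR adjusted p = 5.12e-05), without overlap, and its gene model overlaps that of Psmb9 on the opposite strand. B2m, the light chain shared by class I molecules, had 327, 524 and 378 CPM in trained DTR+ libraries, against 131, 166 and 155 CPM in trained DTR- libraries. Its log2 fold change was 1.5 ± 0.21 (SE; edgeR adjusted p = 0.000519). The classical heavy chains H2-K1 and H2-D1 rose by 1.42 ± 0.22 and 1.34 ± 0.24 on the log2 scale, the nonclassical H2-Q7 by 3.30 ± 0.37 and the peptide editor Tapbpl by 2.30 ± 0.34. Reads of class I heavy chains may be shared between close copies.

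The immunoproteasome replaces catalytic subunits of the proteasome to favour peptides that bind class I. All 3 inducible catalytic subunits rose. Psmb8 had 45.6, 85.1 and 40.7 CPM in trained DTR+ libraries and 11.4, 16.9 and 17.7 CPM in trained DTR- libraries, a log2 fold change of 1.95 ± 0.32 (SE; edgeR adjusted p = 0.00246). Psmb9 and Psmb10 rose by 2.13 ± 0.43 and 1.38 ± 0.29 on the log2 scale, calls that were lost without trained DTR+ replicate 2. Psmb9 was also lost without trained DTR- replicate 1 or 2, and Psmb10 without any 1 of the trained DTR- libraries. The activator subunits Psme1 and Psme2 had log2 fold changes of 0.82 ± 0.24 and 0.93 ± 0.26 and did not pass the test.

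Class II presentation, a property of professional antigen-presenting cells that IFN-gamma can also induce in others, moved less. Of 7 members tested, 3 rose and all 7 were higher, with a median log2 fold change of 1.14. H2-Aa had 98.3, 147 and 111 CPM in trained DTR+ libraries and 54.2, 61.1 and 52.8 CPM in trained DTR- libraries. H2-Eb1 had 66.0, 106 and 84.6 CPM in trained DTR+ libraries and 35.1, 43.8 and 40.4 CPM in trained DTR- libraries. Neither gene overlapped between the groups, and their log2 fold changes were 1.14 ± 0.23 and 1.16 ± 0.24 (SE; edgeR adjusted p = 0.0166 and 0.0198). Ctss, the protease that trims the invariant chain, rose by 1.43 ± 0.31, and Cd74, the invariant chain itself, had a log2 fold change of 0.70 ± 0.21 (edgeR adjusted p = 0.173). Without trained DTR+ replicate 2, none of the 7 was called. The calls of H2-Aa, H2-Eb1 and Ctss were also lost without any 1 of the trained DTR- libraries.

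Genes best known as antiviral targets of type I interferon also rose. Of 29 tested, 13 were called and all 29 were higher, with a median log2 fold change of 1.72. Ifit3 had 26.5, 50.9 and 33.9 CPM in trained DTR+ libraries, against 5.13, 5.14 and 8.5 CPM in trained DTR- libraries. Rsad2, the antiviral enzyme viperin, had 33.7, 86.7 and 60.1 CPM in trained DTR+ libraries, against 11.9, 15.8 and 7.36 CPM in trained DTR- libraries. Every trained DTR+ value exceeded every trained DTR- value, and the log2 fold changes were 2.61 ± 0.34 and 2.43 ± 0.32 (SE; edgeR adjusted p = 0.000168 and 0.000206). Rtp4 was unusual among called genes in having 26.7, 28 and 24.6 CPM in trained DTR+ libraries, a narrow range, against 7.95, 7.99 and 8.17 CPM in trained DTR- libraries. Its gene model overlaps those of Masp1 and Gm45338. The count of called antiviral genes was 4 without trained DTR+ replicate 2.

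**Figure D2:**
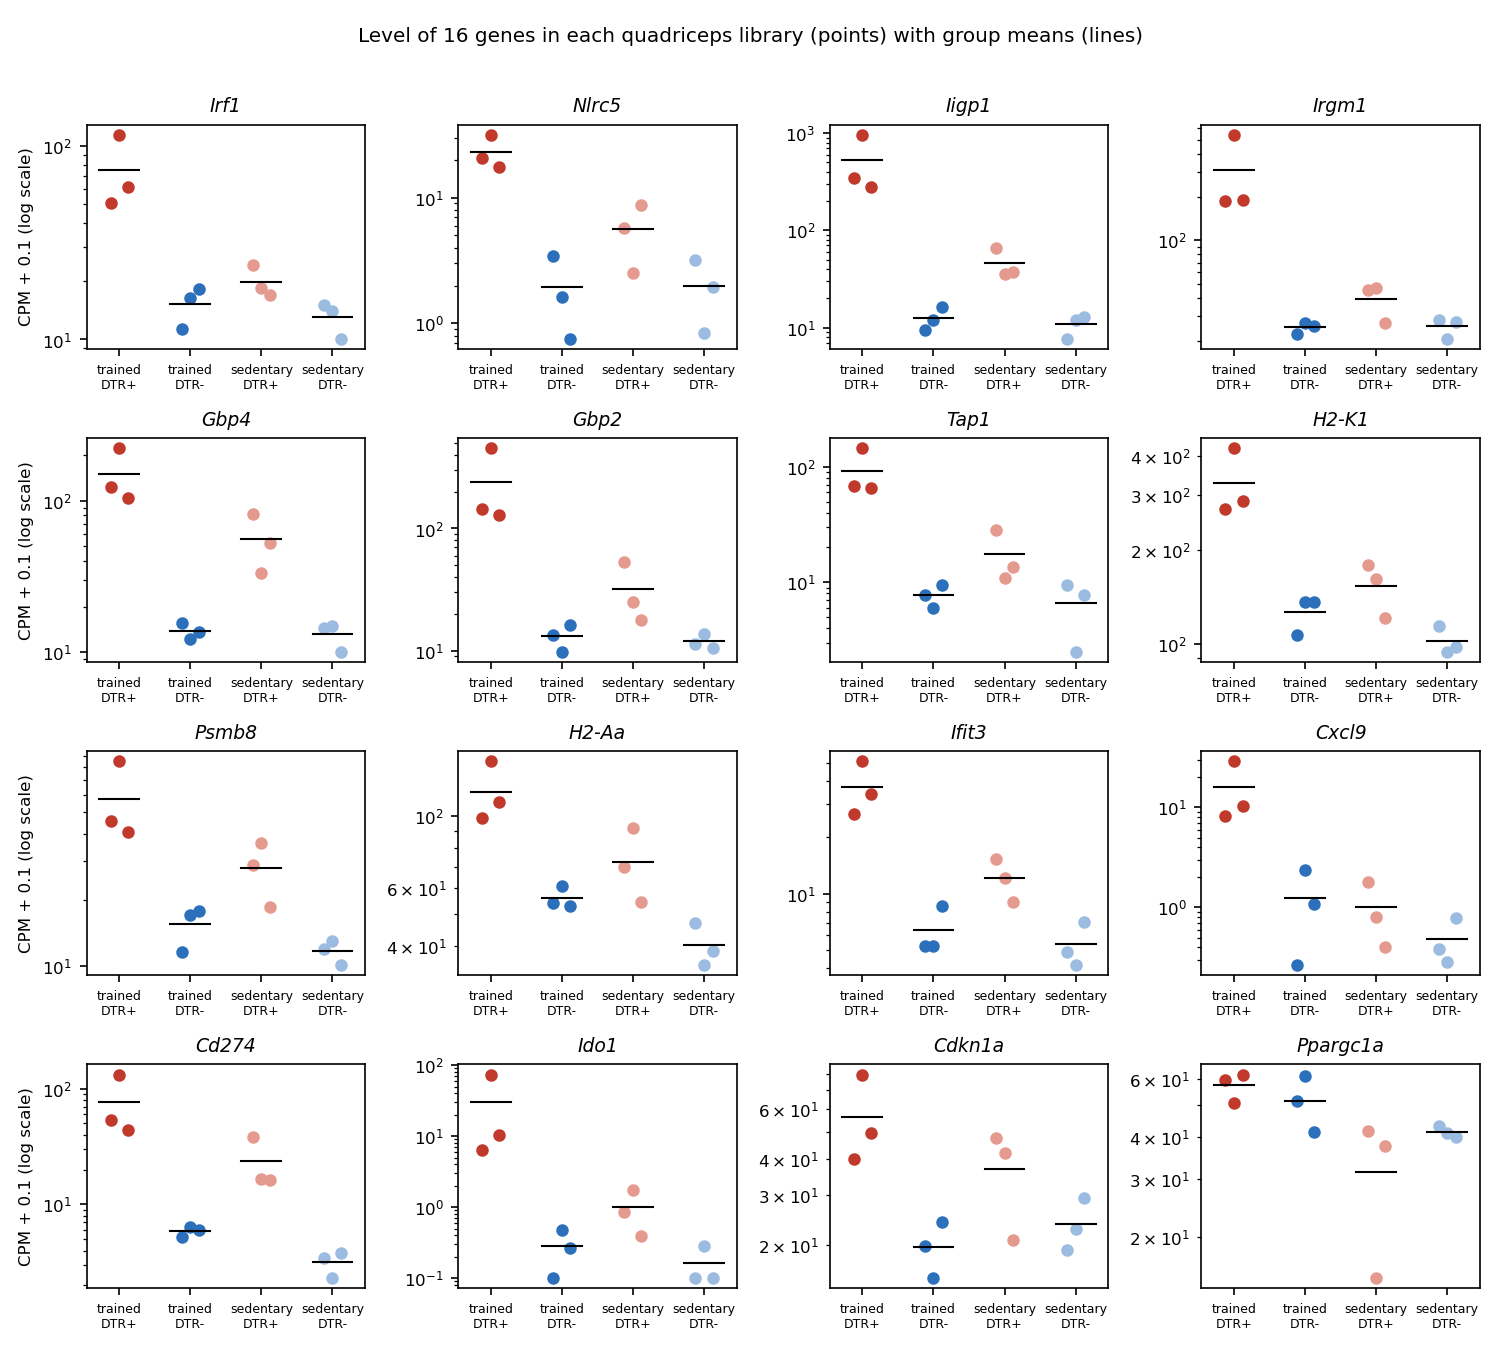
Level of 16 genes in each quadriceps library, in CPM + 0.1 on a log axis, with groups along the horizontal axis; points are libraries and lines are group means (n = 3 each). Of the 16, Irf1 to Cdkn1a are called higher in trained DTR+ muscle and 1 trained DTR+ library lies above the other two in each of these panels, while Ppargc1a overlaps between the trained groups.

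Few chemokine genes were called. Of 11 tested, 2 rose, with a median log2 fold change of 1.06 over the list. Cxcl9, an IFN-gamma-induced attractant of T cells that carry Cxcr3, had 8.20, 28.7 and 10.3 CPM in trained DTR+ libraries, against 0.166, 2.28 and 0.981 CPM in trained DTR- libraries. Its log2 fold change was 3.86 ± 0.68 (SE; edgeR adjusted p = 0.00468), and the call was lost without trained DTR+ replicate 2. Ccl8, an attractant of monocytes and T cells, had 12.9, 19.2 and 15.2 CPM in trained DTR+ libraries, against 2.48, 1.71 and 1.96 CPM in trained DTR- libraries. It rose by 2.98 ± 0.51 on the log2 scale (SE; edgeR adjusted p = 0.00315). Cxcl10 had 8.20, 6.92 and 3.67 CPM in trained DTR+ libraries and 0, 0.952 and 0 CPM in trained DTR- libraries, and did not pass the test (edgeR adjusted p = 0.0534).

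A pair of genes that restrain T cells rose among 8 tested in the list of immune brakes. Cd274, which encodes the checkpoint ligand PD-L1, had 53.7, 132 and 44.0 CPM in trained DTR+ libraries, against 5.13, 6.28 and 5.89 CPM in trained DTR- libraries. Its log2 fold change was 3.79 ± 0.42 (SE; edgeR adjusted p = 2.04e-05), with no overlap. Ido1, the enzyme that begins tryptophan breakdown, had 6.27, 73.7 and 10.3 CPM in trained DTR+ libraries and 0, 0.381 and 0.163 CPM in trained DTR- libraries. These values rest on 524 counts over the trained DTR+ libraries and 3 counts over the trained DTR- libraries, a ratio of 172 with a 95% exact counting interval of 58.4 to 834. Most of the Ido1 counts came from trained DTR+ replicate 2. Wars, the tryptophanyl-tRNA synthetase, which is in no list and was picked after its values were seen, had 116, 279 and 103 CPM in trained DTR+ libraries and 63.1, 57.3 and 61.5 CPM in trained DTR- libraries.

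In the list of cell death and inflammasome genes, 2 of 14 rose. Cdkn1a, the cell cycle inhibitor p21, had 39.9, 79.2 and 49.4 CPM in trained DTR+ libraries and 19.7, 15.2 and 24.0 CPM in trained DTR- libraries (log2 fold change 1.56 ± 0.32, edgeR adjusted p = 0.0168). Il18bp, a secreted decoy that binds interleukin-18, rose by 2.07 ± 0.47 (edgeR adjusted p = 0.037). Neither call held without trained DTR+ replicate 2. Cdkn1a was also lost without trained DTR- replicate 1 or 2, and Il18bp without any 1 of the trained DTR- libraries. Of 12 complement and acute phase genes none was called, with a median of 0.45 and log2 fold changes of -1.16 (C1qc) to 0.86 (C4b).

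Outside the lists, 18 genes rose, and those named here beyond Batf2 were chosen after their values were seen. Batf2, a transcription factor of interferon-stimulated macrophages, had 4.02, 9.17 and 5.76 CPM in trained DTR+ libraries and 0, 0 and 0.654 CPM in trained DTR- libraries (edgeR adjusted p = 0.0294). Its call was lost without replicate 1 or 2 of either trained group, with an adjusted p of up to 0.27 by edgeR, and in 1 other setting (0.0586). Gm12250 had 545 counts over the trained DTR+ libraries and 1 count over the trained DTR- libraries. Xdh, which makes uric acid, and Glul, the glutamine synthetase, are metabolic genes in this set. Xdh had 99.1, 175 and 89.4 CPM in trained DTR+ libraries and 36.1, 36.9 and 35.8 CPM in trained DTR- libraries, and Glul had 119, 144 and 111 CPM in trained DTR+ libraries and 68.7, 66.4 and 65.6 CPM in trained DTR- libraries. Their log2 fold changes were 1.80 ± 0.27 and 0.95 ± 0.17 (SE; edgeR adjusted p = 0.00104 and 0.00497). Ube2l6 and Uba7, the enzymes that attach the ubiquitin-like protein Isg15, rose by 1.76 and 1.82 on the log2 scale.

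**Figure D3:**
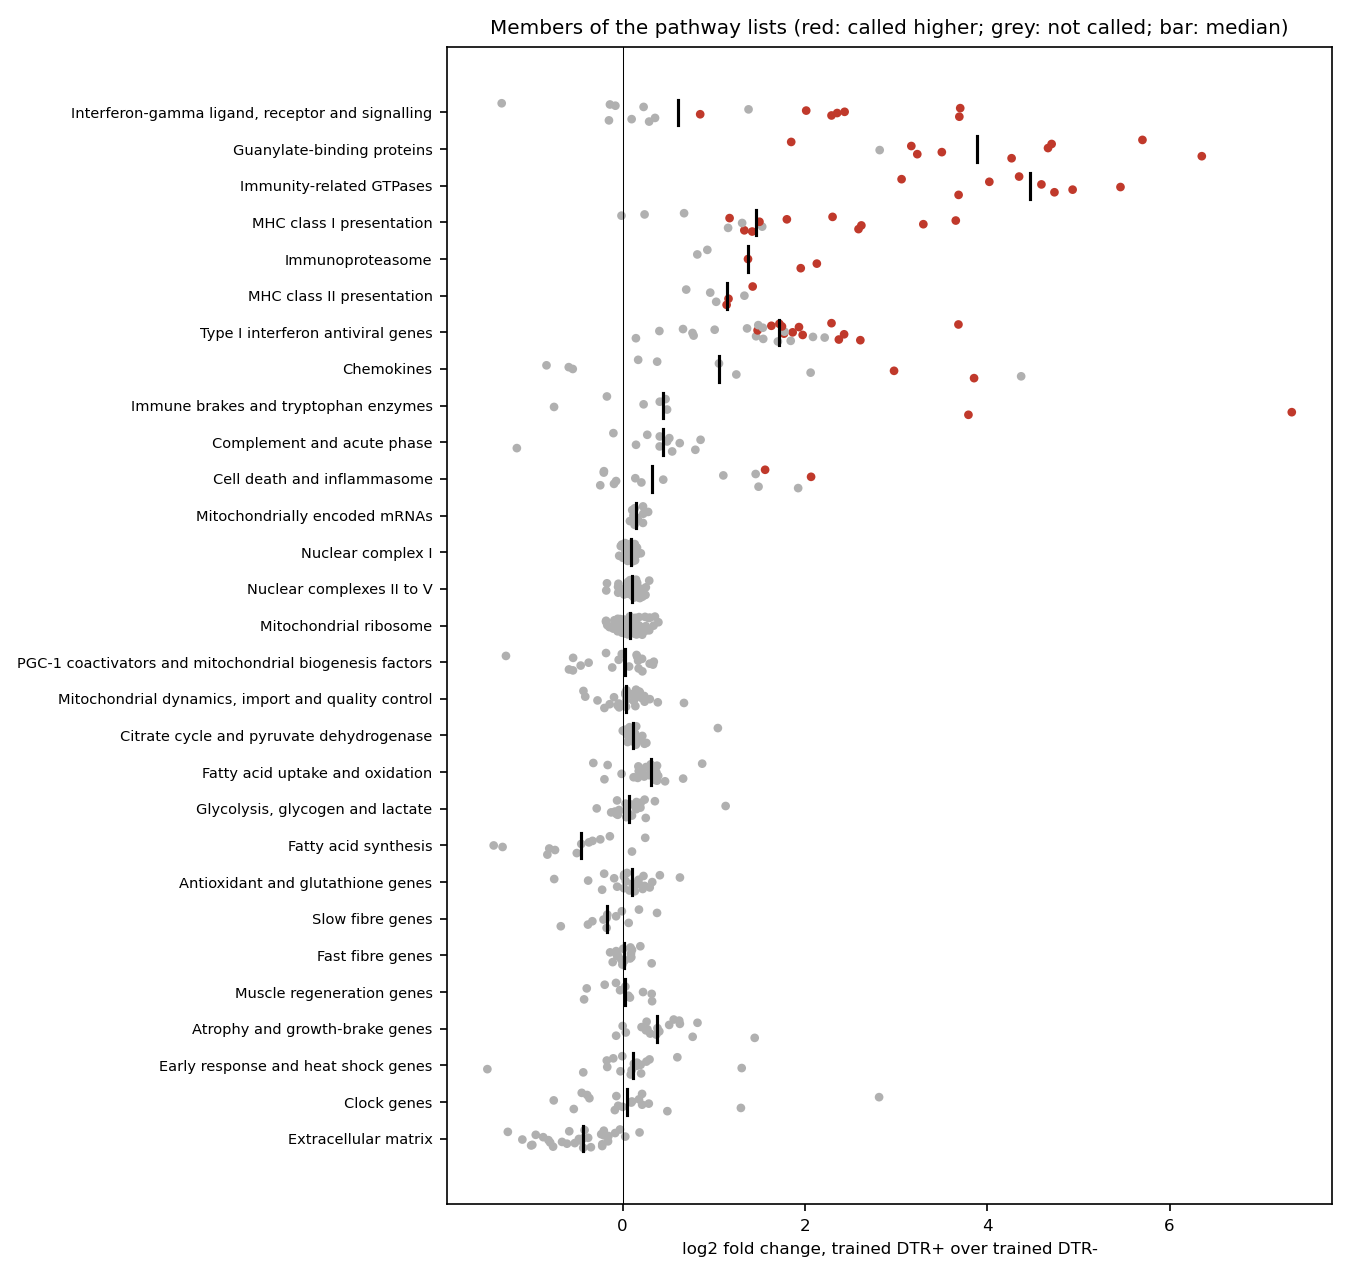
Log2 fold change, trained DTR+ over trained DTR-, of each tested member of the 29 pathway lists (points; red for called higher, grey for not called), with the list's median as a bar. Red points lie in the interferon, GTPase, antigen presentation, chemokine, immune brake and cell death lists, and the mitochondrial and fibre lists lie close to 0 with no red point.

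The machinery that muscle builds with endurance training showed no called gene. Ppargc1a, the coactivator PGC-1 alpha that drives mitochondrial biogenesis, had 59.6, 50.7 and 61.8 CPM in trained DTR+ libraries and 51.3, 61.3 and 41.5 CPM in trained DTR- libraries. The groups overlapped, and the log2 fold change was 0.22 ± 0.25 (edgeR adjusted p = 0.977). None of 37 tested genes of nuclear complex I was called, with a median log2 fold change of 0.09 and a range of -0.04 to 0.20. The 42 genes of complexes II to V had a median of 0.10, the 76 genes of the mitochondrial ribosome 0.09 and the 11 mitochondrially encoded mRNAs 0.15, again with no call. Sdha, the catalytic subunit of complex II, had 1627, 1806 and 1602 CPM in trained DTR+ libraries and 1413, 1542 and 1628 CPM in trained DTR- libraries, with overlap. A p that misses the threshold does not show that levels were equal.

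No gene in the lists of fuel use was called, although single members differed by more than their list's median, from -1.41 for the elongase Elovl6 to 1.13 for the glucose transporter Slc2a1 on the log2 scale. All 22 genes of the citrate cycle and pyruvate dehydrogenase were higher in trained DTR+ muscle, with a median log2 fold change of 0.12. Fatty acid uptake and oxidation had a median of 0.31, with 24 of 28 genes higher. Plin5, which coats lipid droplets beside mitochondria, had 42.6, 53.6 and 52.1 CPM in trained DTR+ libraries and 22, 42.3 and 20.3 CPM in trained DTR- libraries (edgeR adjusted p = 0.246). The groups did not overlap, but the difference did not pass the test. Fatty acid synthesis ran the other way, with 11 of 13 genes lower and a median of -0.45. Scd2, a desaturase, had 14.5, 12.1 and 26.6 CPM in trained DTR+ libraries and 53.3, 46.1 and 37.4 CPM in trained DTR- libraries (log2 fold change -1.32 ± 0.32, edgeR adjusted p = 0.062). The summed level of adipocyte markers was lower in all 3 trained DTR+ libraries, at 1605, 1487 and 1432 CPM, against 1914, 2321 and 2280 CPM in trained DTR- libraries. The same held for 8.70% of the 46 lists. None of the 9 adipocyte markers tested was called, 8 were lower and 1 was higher. Their log2 fold changes ran from -2.03 (Plin1) to 0.23 (Lipe), with -0.51 for Car3. A sum follows its most abundant members, so it need not measure fat cell content. Its part in the lower values of fatty acid synthesis genes was not tested.

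Contractile genes showed no call either. The fast fibre list had a median log2 fold change of 0.01 over 16 genes and the slow fibre list one of -0.17 over 12. Myh2, the myosin of oxidative fast fibres, had 1719, 3718 and 3574 CPM in trained DTR+ libraries and 3532, 2264 and 1737 CPM in trained DTR- libraries. It varied about as much within each group as between them. Of 18 atrophy and growth-brake genes, 17 were higher, with a median of 0.38 and none called. Fbxo32, the ubiquitin ligase atrogin-1, had 493, 404 and 256 CPM in trained DTR+ libraries, against 90.6, 160 and 188 CPM in trained DTR- libraries (log2 fold change 1.45 ± 0.38, edgeR adjusted p = 0.0894). Trim63, the ligase MuRF1, had 208, 171 and 101 CPM in trained DTR+ libraries and 104, 95.4 and 95.5 CPM in trained DTR- libraries, with overlap. Of 32 extracellular matrix genes, 30 were lower, against 6341 of all 12579 genes tested, and none was called, with a median of -0.43. Their summed level was 2593, 2732 and 3501 CPM in trained DTR+ libraries, against 4336, 4496 and 3754 CPM in trained DTR- libraries. The groups did not overlap for the matrix sum, nor for the sum of fibro-adipogenic progenitor markers, the cells that produce much of the matrix, which was 3763, 3896 and 4001 CPM in trained DTR+ libraries, against 4197, 4219 and 4125 CPM in trained DTR- libraries. Both lists hold Col1a1, Col3a1 and Lum, so the sums share counts and are not independent. For 8.70% of the 46 lists the sum was lower in all 3 trained DTR+ libraries. The part of progenitor cells in the lower matrix values was not tested.

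T and NK cell markers had few counts in whole muscle. All 20 T and NK cell markers had counts in trained DTR+ libraries, 402 in all, and 17 of 20 had counts in trained DTR- libraries, 205 in all, with Cd3d, Cd8a and Ptprcap at 0. The summed level was 19.1, 28.5 and 20.6 CPM in trained DTR+ libraries, against 11.8, 10.7 and 12.8 CPM in trained DTR- libraries, without overlap (exact two-sided permutation test, p = 0.1, the smallest value that 3 against 3 allows). The part of these cells in the interferon-related rises was not tested. Only 3 of the 20 markers passed the filter and none was called. Of these 3, Ccl5 was higher (log2 fold change 2.06) and the other two were lower, Cd247 with -1.15, so that the median of the tested members (-0.79) had the opposite sign to the difference in the sum. B and plasma cell markers were lower, at 80.8, 61.2 and 63.9 CPM in trained DTR+ libraries, against 115, 135 and 142 CPM in trained DTR- libraries (exact two-sided permutation test, p = 0.1). Nearly all of that sum was Ighm, the immunoglobulin M heavy chain, with a log2 fold change of -0.90 ± 0.22 (edgeR adjusted p = 0.0534). Over the 46 lists, summed levels were above those of trained DTR- in all 3 trained DTR+ libraries for 26.1% and below them for 8.70%.

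Macrophage and monocyte markers summed to 329, 434 and 422 CPM in trained DTR+ libraries and 310, 382 and 300 CPM in trained DTR- libraries, with overlap, and none of 19 tested was called. The 10 Treg markers summed to 18.6, 12.8 and 15.0 CPM in trained DTR+ libraries and 19.2, 17.7 and 20.4 CPM in trained DTR- libraries, with overlap. Besides Foxp3, Ctla4, Icos and Areg had 0 counts in trained DTR+ libraries and Areg had 0 in trained DTR- libraries, while of the 4 members tested 2 were higher, 2 were lower and none was called. Among markers of the resident cells, Ly6c1 of endothelium and Ly6a (Sca-1) of fibro-adipogenic progenitors rose, and both are known to respond to interferon. The Ly6c1 call (log2 fold change 1.24 ± 0.28, edgeR adjusted p = 0.036) was lost without trained DTR+ replicate 2 and without any 1 of the trained DTR- libraries. Ly6a had 145, 254 and 154 CPM in trained DTR+ libraries and 59.6, 67.2 and 72.4 CPM in trained DTR- libraries, a log2 fold change of 1.53 ± 0.23 (SE; edgeR adjusted p = 0.00104). No other endothelial or progenitor marker was called, and the median over the lists was -0.17 for 12 endothelial genes and -0.40 for 14 progenitor genes.

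The 34 genes that fell formed no list and were less marked. Adssl1, the muscle form of adenylosuccinate synthase in the purine nucleotide cycle, had 289, 216 and 730 CPM in trained DTR+ libraries, against 1887, 1418 and 783 CPM in trained DTR- libraries. Trained DTR+ replicate 3 nearly reached trained DTR- replicate 3, and the log2 fold change was -1.68 ± 0.34 (SE; edgeR adjusted p = 0.0139). Timm29, a subunit of the TIM22 complex that inserts carriers into the inner mitochondrial membrane, had 25.5, 15.9 and 30.4 CPM in trained DTR+ libraries, against 114, 71.2 and 46.9 CPM in trained DTR- libraries. It fell by 1.63 ± 0.26 on the log2 scale (SE; edgeR adjusted p = 0.00198). Tsen34, a subunit of the tRNA splicing endonuclease, had 4.50, 6.05 and 11.9 CPM in trained DTR+ libraries, against 29.2, 30.3 and 23.5 CPM in trained DTR- libraries. It fell by 1.84 ± 0.29 (SE; edgeR adjusted p = 0.00165).

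Rnf187, a ubiquitin ligase, had 18.5, 18.5 and 38.6 CPM in trained DTR+ libraries, against 193, 129 and 41.4 CPM in trained DTR- libraries. Phlda3, a p53 target that restrains Akt, had 22.5, 19.0 and 28.6 CPM in trained DTR+ libraries, against 135, 79.2 and 33.4 CPM in trained DTR- libraries. Both show the pattern of the set: in trained DTR- muscle replicate 3 was the lowest library for 29 of the 34 genes, and in trained DTR+ muscle replicate 3 was the highest for 31. Genes detected (with any count) numbered 19110, 19157 and 20112 in trained DTR+ libraries and 20761, 19426 and 19057 in trained DTR- libraries, with overlap. Replicate 3 thus had the most of the trained DTR+ libraries and the fewest of the trained DTR- ones. The part of genes detected in these falls was not tested. Upf3a (nonsense-mediated decay), Fance (Fanconi anaemia core complex) and Sfrp2 (a secreted modulator of Wnt signals) fell by 2.41, 1.85 and 1.88 on the log2 scale, from levels under 15 CPM in every trained DTR- library. Rflnb, Trp53rka, Tusc2 and Fam174a fell by 1.81, 1.71, 1.66 and 1.62 on the log2 scale.

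These falls depended on single libraries. Leaving out 1 of the 6 libraries at a time left 3 to 149 genes called lower, with 4 without trained DTR+ replicate 1, 3 without trained DTR+ replicate 2, 149 without trained DTR+ replicate 3, 5 without trained DTR- replicate 1, 6 without trained DTR- replicate 2 and 58 without trained DTR- replicate 3. Of the 12 named genes that fell, Timm29 and Tsen34 were called in every such fit and setting, and of the 39 named genes that rose, 27 were. The transcripts of the 34 genes had a median GC content of 53.6%, against 48.5% for the 78 genes that rose and 49.4% for the genes tested. Once trends with length and GC were taken out of each library, 32 of the 34 were again called lower.

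**Figure D4:**
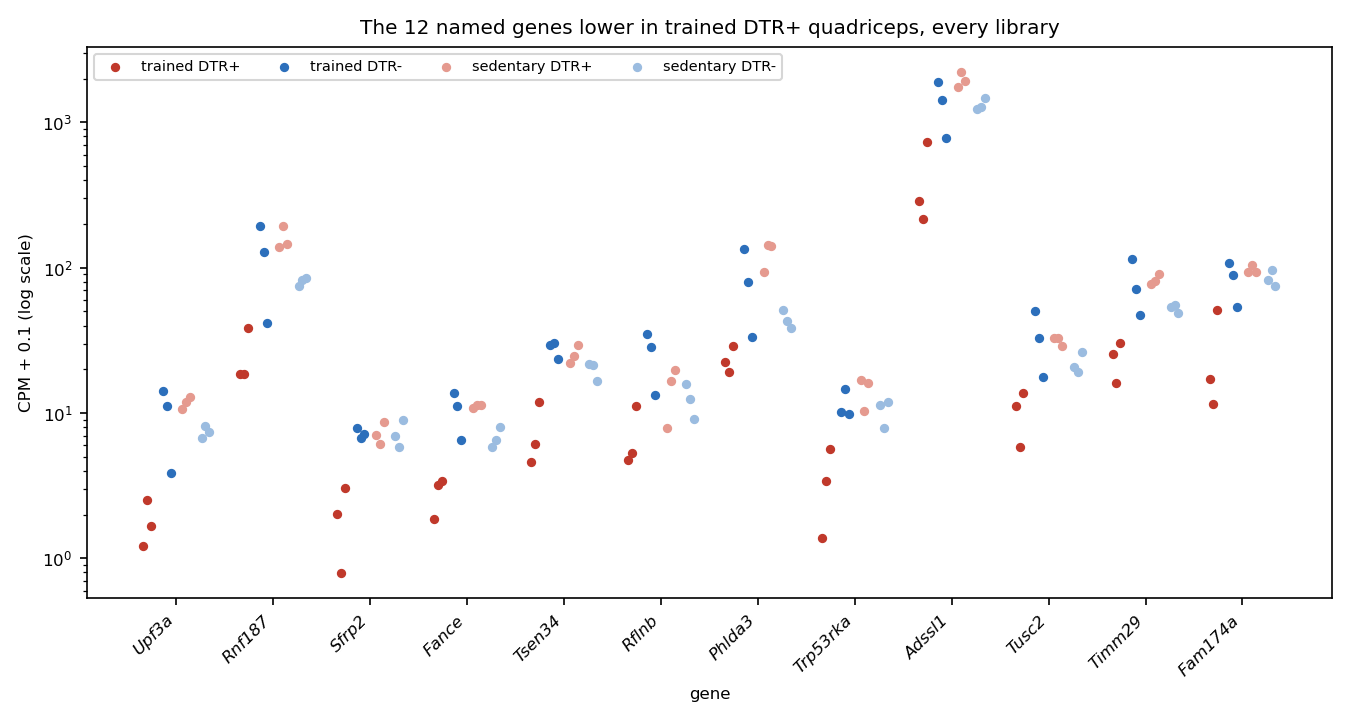
Level of the 12 named genes called lower in trained DTR+ muscle, in CPM + 0.1 on a log axis, with genes along the horizontal axis and 1 point per library. The trained DTR+ points lie below the trained DTR- points for each gene, which the rule for naming these genes required. For several, Phlda3 and Rnf187 among them, 1 trained DTR- library lies close to the trained DTR+ ones.

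At rest, the same genotype contrast gave few calls. The sedentary DTR+ libraries were uneven, with 5280045, 8655927 and 3359683 counts and 22079, 17342 and 21186 genes detected. The sedentary DTR- libraries had 7119155, 5429167 and 5908874 counts and 20843, 21857 and 21429 genes detected. The part of this unevenness in the calls at rest and in the interaction was not tested. Whatever their p, 6937 of the genes tested were higher in sedentary DTR+ muscle and 5642 were lower. Between sedentary DTR+ and sedentary DTR- mice 6 of 12579 genes rose (0.0477%) and none fell. Those called were Gbp4, Cd274, Cd74, Tgtp2, Gbp3 and Gm12250, and 642 genes had an unadjusted p under 0.05, while DESeq2 called 24 higher and 4 lower. Without any 1 of the sedentary DTR- libraries no gene was called, and 1 gene was called without sedentary DTR+ replicate 1, 3 without replicate 2 and 11 without replicate 3. Gbp4 had 82.0, 33.0 and 52.7 CPM in sedentary DTR+ libraries and 14.5, 14.7 and 9.98 CPM in sedentary DTR- libraries, a log2 fold change of 2.10 ± 0.31 (SE; edgeR adjusted p = 0.0135). Cd274 had 38.1, 16.5 and 16.1 CPM in sedentary DTR+ libraries and 3.37, 2.21 and 3.72 CPM in sedentary DTR- libraries, a log2 fold change of 2.94 ± 0.44 (SE; edgeR adjusted p = 0.0135). Both lay between the trained groups in sedentary DTR+ muscle. Over lists, the median log2 fold change at rest was 1.77 for the immunity-related GTPases (1 of 8 called), 1.57 for the guanylate-binding proteins (2 of 10 called), 1.07 for class II presentation (1 of 7 called) and 0.57 for class I presentation (0 of 16 called), against 0.04 for all genes tested. Macrophage and monocyte markers were higher at rest for 18 of 19 genes, with a median of 0.81 and none called, and their part in these values was not tested. Of the 78 genes that rose in trained mice, 73 were higher at rest in DTR+ mice, with a median log2 fold change of 0.88, and for 40 the sedentary DTR+ libraries were all above the sedentary DTR- ones, against 4.32% of all genes tested (5.01% had them all below).

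Whether the genotype effect differed between trained and sedentary mice was tested as an interaction, which called 9 genes higher (0.0715%) and 25 lower (0.199%) out of 12579. Among the 9 were Irgm2, Igtp, Gm12185, Irgm1, Iigp1, BC023105, Gbp10 and Irf8. Irgm2 had 35.8, 28.5 and 21.4 CPM in sedentary DTR+ libraries and 25.3, 18.1 and 15.2 CPM in sedentary DTR- libraries. These groups overlapped, unlike those of trained mice, and the difference of the log2 fold changes was 4.13 ± 0.51 (SE; edgeR adjusted p = 0.00181). Iigp1 had 65.3, 35.2 and 37.5 CPM in sedentary DTR+ libraries and 7.59, 12 and 12.9 CPM in sedentary DTR- libraries, with no overlap, and its effect was larger in trained mice by 3.33 ± 0.56 on the log2 scale (SE; edgeR adjusted p = 0.0158). For Cd274 and Gbp4 the differences, 0.86 ± 0.60 and 1.40 ± 0.43, did not pass the test (edgeR adjusted p = 0.929 and 0.263).

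Among the 25 with a lower effect in trained mice was Phlda3, with 93.6, 142 and 140 CPM in sedentary DTR+ libraries and 51.0, 43.1 and 38.4 CPM in sedentary DTR- libraries. It was thus higher in sedentary DTR+ muscle, without overlap, and lower in trained DTR+ muscle, and the difference was -3.30 ± 0.47 (SE; edgeR adjusted p = 0.00779). Rnf187 had 139, 194 and 146 CPM in sedentary DTR+ libraries and 74.2, 82.1 and 85.3 CPM in sedentary DTR- libraries, a difference of -3.25 ± 0.53 (SE; edgeR adjusted p = 0.0143). Of the 34 genes that fell in trained mice, 32 had a positive log2 fold change at rest, with a median of 0.47. For 19 of the 34, all sedentary DTR+ libraries were above the sedentary DTR- ones, against 4.32% of all genes tested. For 0 of the 34 they were all below, against 5.01% of all genes tested. None of the 34 was called at rest.

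In the separate mice given antibodies, most of the genes that rose in trained DTR+ muscle were lower where IFN-gamma was neutralised. The antibody comparison tested 11742 genes, of which 84 fell (0.715%) and 74 rose (0.630%) with anti-IFN-gamma relative to IgG, 1.35% in all. These libraries share no sample with the genotype comparison. Whatever their p, 5831 of the genes tested were higher with anti-IFN-gamma and 5911 were lower. Of the 78 genes higher in trained DTR+ muscle, 75 were tested, 74 were lower with anti-IFN-gamma and 62 fell, which is 79.5% of the 78 and 73.8% of the 84. The median log2 fold change was -1.41, against -0.00 for all genes tested. For 66 of the 78, all 3 anti-IFN-gamma libraries were below all 3 IgG libraries, against 7.11% of the genes tested. Their summed level was 2008, 2054 and 1862 CPM with anti-IFN-gamma, against 4072, 4689 and 5555 CPM with IgG.

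The values with anti-IFN-gamma lay near those of trained DTR- mice of the other experiment, but the experiments were not fitted together. Iigp1 had 10.8, 10.2 and 9.82 CPM with anti-IFN-gamma and 102, 123 and 228 CPM with IgG, a log2 fold change of -3.88 ± 0.26 (SE; edgeR adjusted p = 1.02e-06). Cd274 had 4.03, 3.44 and 3.39 CPM with anti-IFN-gamma and 41.9, 49.5 and 61.9 CPM with IgG, a log2 fold change of -3.81 ± 0.20 (SE; edgeR adjusted p = 1.17e-07). Neither gene overlapped between the antibodies. All 8 GTPases of the immunity-related list and all 8 tested guanylate-binding proteins fell, with median log2 fold changes of -2.94 and -3.13. Of 29 antiviral genes, 11 fell, with a median of -0.85.

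Some genes that rose in trained DTR+ muscle did not pass the test with the antibody. Cdkn1a had 45.7, 36.3 and 28.3 CPM with anti-IFN-gamma and 36.3, 25 and 48.6 CPM with IgG, and Ccl8 had 7.06, 8.61 and 3.56 CPM with anti-IFN-gamma and 11.1, 5.70 and 6.56 CPM with IgG. Both overlapped, with log2 fold changes of -0.00 ± 0.21 and -0.29 ± 0.35. Rtp4 and H2-Aa had log2 fold changes of -0.58 ± 0.23 and -0.44 ± 0.16 (edgeR adjusted p = 0.371 and 0.304).

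The 34 genes lower in trained DTR+ muscle were all higher with anti-IFN-gamma than with IgG, with a median log2 fold change of 1.09, and 19 rose, which is 55.9% of the 34 and 25.7% of the 74. For 30 of them all 3 anti-IFN-gamma libraries were above all 3 IgG libraries, against 8.13% of the genes tested. Adssl1 had 1308, 1008 and 1016 CPM with anti-IFN-gamma and 214, 227 and 578 CPM with IgG, a log2 fold change of 1.71 ± 0.28 (SE; edgeR adjusted p = 0.00433). Timm29 had 56.1, 45.9 and 48.8 CPM with anti-IFN-gamma and 12.4, 20.2 and 21.4 CPM with IgG, a log2 fold change of 1.49 ± 0.18 (SE; edgeR adjusted p = 0.000381). Both were separate between the antibodies. IgG replicate 3 was the highest IgG library for 29 of the 34, and the count of genes that rose with anti-IFN-gamma was 274 without it and 17 without IgG replicate 2. Genes detected numbered 20545, 20774 and 21830 with anti-IFN-gamma, against 19682, 19464 and 20005 with IgG, without overlap. IgG replicate 3 thus also had the most genes detected among the IgG libraries. The part of genes detected in these higher values was not tested.

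**Figure D5:**
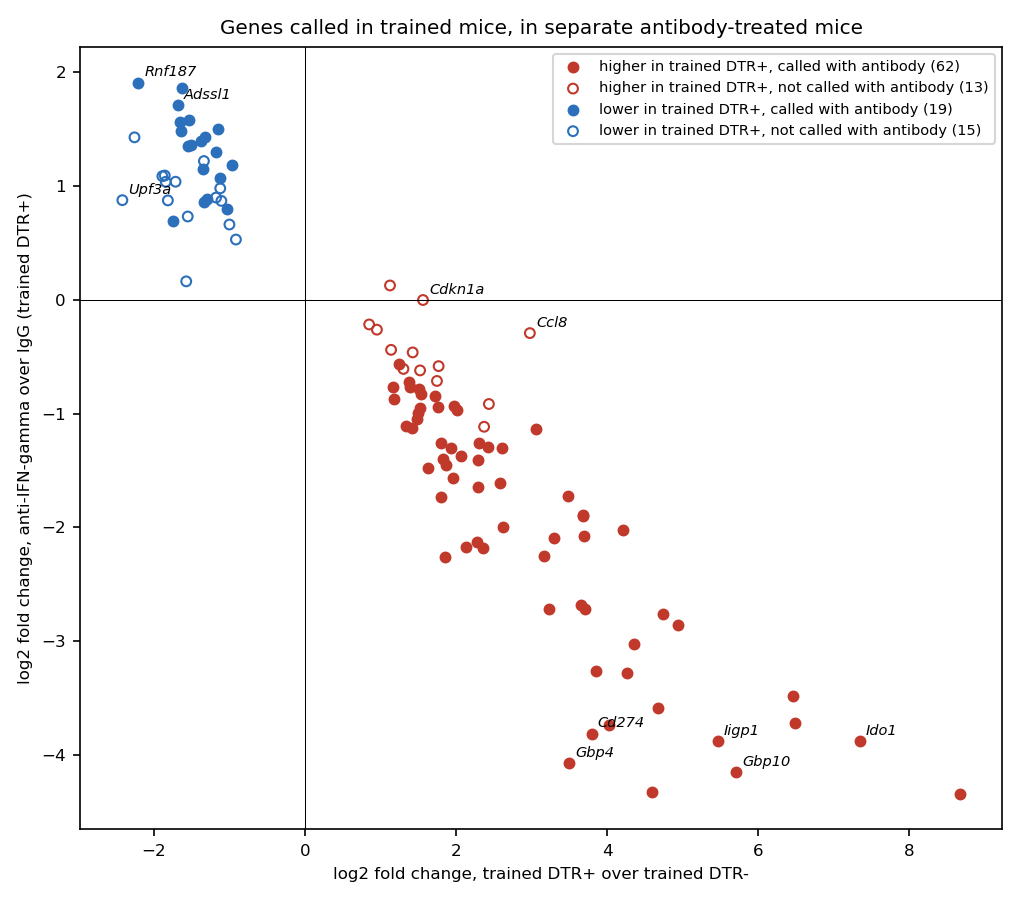
Log2 fold change of the called genes in trained DTR+ over trained DTR- muscle (horizontal axis) against their log2 fold change with anti-IFN-gamma over IgG in separate trained DTR+ mice (vertical axis). Filled points are also called with the antibody (62 of the genes called higher and 19 of those called lower), and nearly all points lie in the quadrants where both changes have opposite sign.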

How the data were processed

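Whole-muscle RNA was sequenced in bulk. The authors deposited raw counts of 55011 genes in 61 libraries as 1 table. Reads were, per the submitters' processing notes, aligned to mm10 with STAR 2.7.3a and counted with featureCounts. Per the labels' protocols, libraries were made from small amounts of RNA by an ultra-low-input protocol. The sources used here do not give the strand setting, the annotation or the treatment of multiply mapping reads, so counts of close copies and of overlapping genes (also Irf9 with Rnf31, Tapbpl with Vamp1, Wars with Wdr25, Timm29 with Yipf2, Tsen34 with Mboat7) are uncertain.

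The 12 libraries of the training experiment (3359683 to 8655927 counts) were fitted together with edgeR 4.0.16 in R 4.3.3. Genes passed filterByExpr by group (minimum count 10, minimum total 15), libraries were scaled by TMM factors, and quasi-likelihood F tests compared group means. The 6 antibody libraries were fitted alone with the same settings. Calls required an adjusted p (Benjamini-Hochberg, over all genes tested) under 0.05. CPM divides by the library total, and SEs were obtained by dividing the size of each log2 fold change by the root of F. Positions and transcript properties came from GENCODE vM21 by symbol (52936 symbols matched). Replicates of each trained group differed beyond sampling noise (chi-square per degree of freedom 6.85 to 16.2), so each counts as 1 sample. The step was tested on simulated counts of 12250 genes. It recovered 33 of 100 genes changed by 1 on the log2 scale and 74 of 100 changed by 2, with 11 false calls. Lists without a called gene may therefore hold changes of these sizes that were missed. A count of 0 allows up to 3 counts; this floor and counting intervals cover counting error only.

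Named genes were, by size of the fold change, the top 12 called higher and the top 12 called lower (mean CPM of at least 5 in either group, no overlap, established symbol), the 4 called members with the smallest p of each pathway list, the 2 of each cell type list, the 8 with the smallest p for the difference of effects, and Foxp3, Ifng and Ppargc1a. A gene that the rule also named is not reported here. For lists without a called member the 2 with the smallest p were added, and further members of a list are named to complete its account; both were chosen after their values were seen. The members and the lists were chosen with earlier results of these data known. Alternatives tried were DESeq2 size factors, DESeq2 1.42.0, no filter, a minimum count of 30, the replicate number as a block, removal of a length and GC trend, mitochondrial genes left out, only the 6 libraries compared, and each library left out.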

Additional observations from a re-analysis of the deposited data

Results flagged for a closer look

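The effect of the DTR+ genotype differed between trained and sedentary mice for 9 genes with a higher effect in trained mice and 25 with a lower one, by the interaction term of edgeR's quasi-likelihood test at an adjusted p under 0.05. The 8 with the smallest p follow as differences of log2 fold changes, trained minus sedentary. They were 4.13 for Irgm2, 3.52 for Igtp, 5.93 for Gm12185, 2.97 for Irgm1 and 3.33 for Iigp1, all GTPase genes or neighbouring gene models, and -3.30 for Phlda3, -2.33 for Timm29 and -3.25 for Rnf187. Gm12185 had 51.6, 143 and 42.1 CPM in trained DTR+ libraries and 0.994, 1.14 and 0.654 CPM in trained DTR- libraries, against 1.89, 1.96 and 1.19 CPM in sedentary DTR+ libraries and 0.140, 1.84 and 2.03 CPM in sedentary DTR- libraries. Its gene model overlaps that of Tgtp1. Timm29 had 76.9, 81.4 and 90.5 CPM in sedentary DTR+ libraries and 53.8, 55.1 and 48.4 CPM in sedentary DTR- libraries, higher in DTR+ at rest. The calls of Irgm2 and Phlda3 held in every fit that left out 1 library, and each of the other 6 was lost in at least 1 of them. Trained DTR+ replicate 2 was the highest library for 77 of the 78 genes that rose; its part in the difference is given by the fit without it, which called 7 genes higher and 4 lower. The number of higher genes was 1 and 3 without trained DTR- replicates 1 and 2, 21 without trained DTR+ replicate 3 and 2 to 3 without 1 of the sedentary DTR- libraries. The number of lower genes was 3 and 128 without trained DTR+ replicates 1 and 3, 1, 2 and 57 without trained DTR- replicates 1, 2 and 3, 47 without sedentary DTR+ replicate 2 and 1 without any 1 of the sedentary DTR- libraries.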

How the results depend on the processing

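The 78 genes called higher in trained DTR+ muscle numbered 75 to 112 under the other settings and 44 to 90 with 1 library left out; the 34 called lower numbered 93 with DESeq2, 148 without a filter, 56 with the length and GC trend removed and 3 to 149 with 1 library left out. None of the 39 named genes called higher or the 12 called lower changed direction in the 14 settings. Of the named genes that were not called, 3 changed sign with 1 library left out: Myh6 (-0.76 to 0.62), Hba-a1 (-0.34 to 0.03) and Hba-a2 (-0.24 to 0.02, all log2 fold changes). At rest, the 6 higher genes became 24 with DESeq2, 43 without a filter, 0 with only the 6 libraries compared and 0 to 11 with 1 left out, and the 0 lower genes became 4 with DESeq2, 4 without a filter and 0 to 1. The difference of effects, 9 higher and 25 lower, gave 23 and 88 with DESeq2, 31 and 116 without a filter, and 1 to 21 and 1 to 128 with 1 library left out. The antibody comparison, 74 higher and 84 lower, gave 236 and 139 without a filter, and 17 to 274 and 54 to 108 with 1 left out. Replicate numbers did not pair the samples: deviations of same-numbered trained libraries correlated at -0.10 to 0.03. With the replicate number as a block, 75 genes were higher and 29 lower in trained DTR+ muscle, 14 were lower for the difference and 47 higher for the antibody. With 5254321 to 6223157 counts per trained library, genes near 1 CPM rest on few counts, which limits what can be called for them. The cause of these shifts was not tested.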
